A study of Rattus norvegicus with 3 samples.

Results

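The nuclear-encoded mRNAs of the respiratory chain were examined in RNA from extracellular vesicles of rat adipose-derived mesenchymal stem cells. Members were the protein-coding genes outside the mitochondrial genome whose symbols carry the names of the subunits of complexes I to V (Ndufa, Ndufb, Ndufc, Ndufs, Ndufv, Sdha to Sdhd, Uqcr, Cyc1, Cox4 to Cox8 and Atp5). The rule took 103 of the 29684 genes listed, of which 22745 were nuclear and protein-coding. Complex I held 46 members, complex II 4, complex III 9, complex IV 18 and complex V 19, and the other 7 were Ndufaf genes, which encode assembly factors of complex I and not subunits. Ndufa4 was placed in complex IV, where its protein is known to sit, and the other members by name. Of the 103, 17 were further copies of a subunit gene: loci with pseudogene names that the annotation types as protein-coding, like-genes such as Ndufb4l1, and a second row each of Cox6b1 and Ndufb2. The KEGG pathway column of the table placed 76 of the 103 in oxidative phosphorylation, among them 73 of the 86 members that were not copies.

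The cells came from the inguinal fat of wild-type rats and were cultured, and vesicles were taken from their medium. There were 3 libraries of a single group, each from its own batch of vesicles, and no library of the parent cells or of a treated group entered. The labels do not tie the batches to separate animals or cultures, so the spread between libraries may be technical. The aim stated for the series was to look for RNA in the vesicles that may be active in a model of premature ovarian insufficiency. Counts summed over all genes were 5219920, 6786182 and 6618461 in replicates 1, 2 and 3.

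The respiratory chain passes electrons from NADH (complex I) and succinate (complex II) through coenzyme Q, complex III and cytochrome c to oxygen at complex IV, and complex V uses the resulting proton gradient to make ATP. The mitochondrial genome encodes a few membrane subunits of complexes I, III, IV and V. All other subunits, and all of complex II, are encoded in the nucleus, translated in the cytosol and imported. Promoters of these nuclear genes are known for binding sites of NRF1, of ETS factors such as GABP, and of YY1.

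Levels are given in FPKM, fragment counts scaled to transcript length and to the mapped fragments of the library, which allows genes to be compared per length. With no control group, the reference was the 1313 olfactory and vomeronasal receptor genes, whose proteins serve in sensory neurons. Their median was 2.95, 2.35 and 2.65 FPKM in replicates 1, 2 and 3. The median nuclear coding gene had 5.22, 4.46 and 4.83 FPKM. A gene was called above the background where limma's treat test put its log2(FPKM + 1) value more than 2 past that of the median receptor gene, with Benjamini-Hochberg adjusted p under 0.05 over all 29684 genes. Fewer vesicles that carry an mRNA and fewer copies per vesicle cannot be told apart in such libraries.

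The respiratory chain mRNAs as a group lay above the middle of the coding genes but were a small share of the library. Their summed level was 1305, 2179 and 2017 FPKM, or 0.347%, 0.530% and 0.485% of all FPKM (0.454% ± 0.0953, mean ± SD, n = 3). They took 0.274% ± 0.0371 of the counts. The median member had 7.83, 8.67 and 9.68 FPKM (8.73 ± 0.924). Leaving out the 17 copies raised this to 10.04 ± 1.37 FPKM, and the copies alone had a median of 4.2 ± 1.41 FPKM. In every library 67 of the 103 members (65.0%) lay above the median coding gene, against 35.2% of nuclear coding genes. Over 2 times that median in every library lay 33 members (32.04%, against 6.96% of coding genes), 13 of them in complex I and 10 in complex V. Another 9 members lay below it in every library (8.74%, against 35.3% of coding genes).

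The level of single members spanned a wide range, and few were far above the receptors. By limma's treat test 4 of 103 were called (3.88%, against 1.57% of nuclear coding genes and 1.79% of all genes), namely Atp5if1 and Atp5me of complex V, Uqcrq of complex III and Cox6c of complex IV. At an unadjusted p under 0.05 there were 20 members, 811 of the 22745 nuclear coding genes and 1142 of all genes. A test of the same threshold on the counts with edgeR's quasi-likelihood model called 14 of 103 (13.6%, against 2.67% of coding genes and 2.76% of all genes), 5 in complex I, 1 in complex III and 4 each in complexes IV and V. By rank, 17 of 103 members exceeded the receptors' 99th percentile in all 3 libraries (16.5%, against 3.13% of coding genes). These were 5 members each of complexes I, IV and V and 1 each of complexes II and III, and none of the 7 assembly factors. The limma count rested on the libraries used: it was 16 without replicate 1, 2 without replicate 2 and 0 without replicate 3, against 768, 234 and 0 of all genes. Without replicate 3, where no gene of the table was called, 14 members and 948 genes had an unadjusted p under 0.05.

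**Figure D1:**
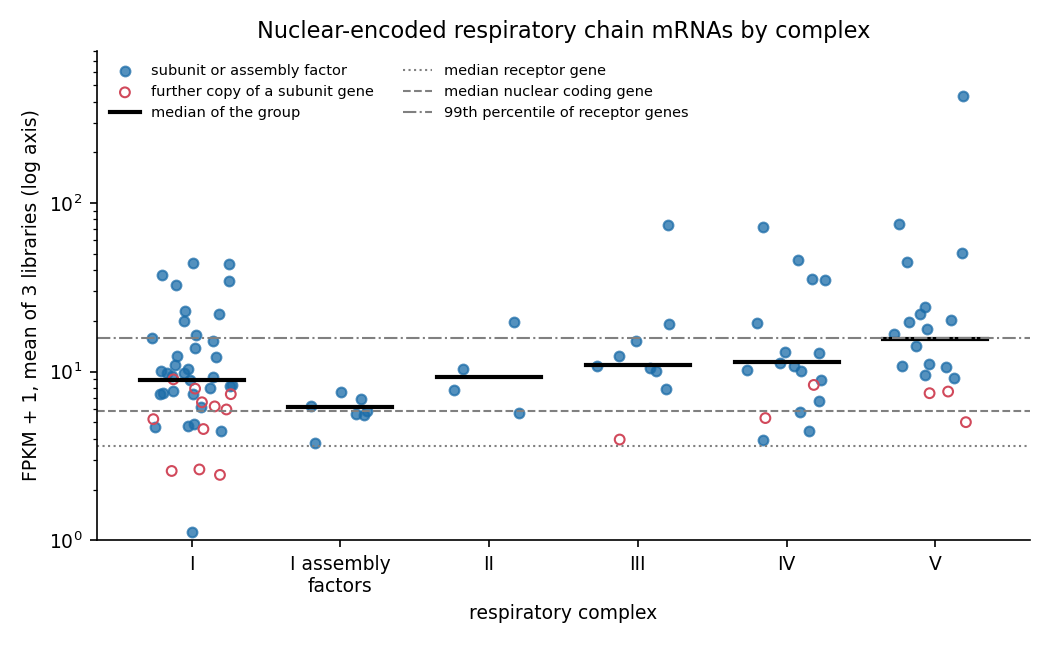
FPKM + 1 (log axis) of each of the 103 members, as the mean of 3 libraries, by complex and for the complex I assembly factors. Filled points are subunit or assembly genes, open points further copies, black bars the group medians, and the horizontal lines mark the median receptor gene, the median nuclear coding gene and the receptors' 99th percentile, each raised by 1. Atp5if1 of complex V, at 427.7 FPKM, stands above all other members, and the assembly factors lie between 2.76 and 6.53 FPKM.

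Atp5if1 was by far the most abundant member. It encodes the inhibitory factor that keeps complex V from hydrolysing ATP when the proton gradient falls, and it is not a structural subunit. Its gene lies on the minus strand of chromosome 5, 144738950 to 144742668 (mRatBN7.2). Atp5if1 had 270.9, 559.0 and 453.3 FPKM (427.7 ± 145.7), from 1042, 2586 and 2105 counts. Even its lowest value lay above every value of any other member, and Atp5if1 was 4.91, 5.71 and 6.62 times the level of Atp5me. It alone made up 20.8%, 25.7% and 22.5% of the members' summed FPKM (23.0% ± 2.48). On the log2(FPKM + 1) scale its level stood 6.82 higher than the median receptor (SE 0.317, limma adjusted p = 0.00303), and without replicate 3 the limma adjusted p was 0.109. The row overlaps no other gene of the table.

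The other 3 called members were small subunits of 3 different complexes at nearly the same mean level. Atp5me, subunit e in the membrane part of complex V, which takes part in the pairing of ATP synthases, lies on chromosome 14, 1319868 to 1321013, plus strand. It had 55.2, 97.9 and 68.4 FPKM (73.9 ± 21.9) from 92, 195 and 137 counts, 4.32 above the receptors (log2 scale, SE 0.236, limma adjusted p = 0.0102). Uqcrq, a small subunit of complex III, lies on chromosome 10, 37586888 to 37589169, minus strand. It had 52.6, 84.6 and 80.6 FPKM (72.6 ± 17.4), 4.31 above the receptors (SE 0.221, limma adjusted p = 0.00824). Cox6c, a small membrane subunit of cytochrome c oxidase, lies on chromosome 7, 67111024 to 67141963, minus strand, and overlaps Vps13b, which has 3.0 FPKM, on the other strand. It had 34.7, 86.8 and 91.5 FPKM (71.0 ± 31.5), 4.18 above the receptors (SE 0.348, limma adjusted p = 0.0459). For all 3 genes replicate 1 was the lowest library. Uqcrq and Cox6c were not called without replicate 2 (limma adjusted p 0.0562 and 0.232), and none of the 3 without replicate 3 (0.135 for Atp5me, 0.129 for Uqcrq and 0.341 for Cox6c). All 3 lost their call with a pseudocount of 5 (limma adjusted p 0.0968 for Atp5me, 0.0831 for Uqcrq and 0.445 for Cox6c) and on the CPM scale (1.0, 0.222 and 1.0). Cox6c also lost it under TMM scaling, DESeq2 size factors, a robust prior variance and both references of coding genes (limma adjusted p 0.0527, 0.0530, 0.0855, 0.239 and 0.238).

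**Figure D2:**
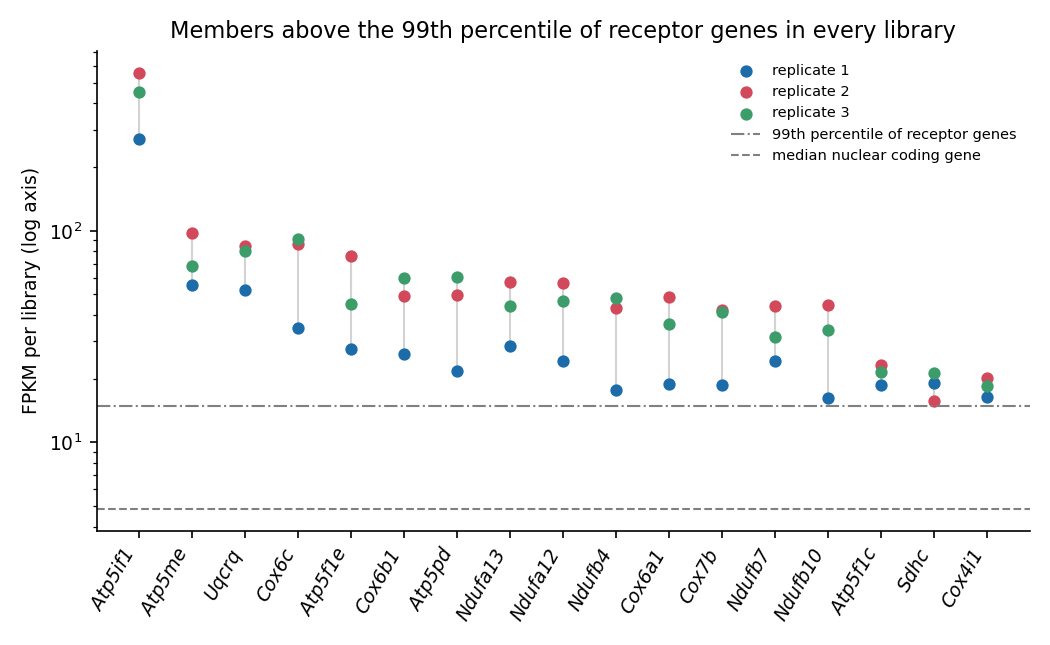
FPKM (log axis) in each library of the 17 members above the receptors' 99th percentile in all 3 libraries, in order of their mean. Points are libraries, joined per gene by a grey line, and the horizontal lines are the receptors' 99th percentile and the median nuclear coding gene (means of 3 libraries). Replicate 1 is the lowest point for 16 of the 17 members, all but Sdhc.

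Promoter sequences were taken from RefSeq for the rat build GRCr8, which is not the build of the count table; 77 of the 103 members matched an entry. The 250 bases before the start site were searched on both strands for GCGCA, any base and GCGC in a row (NRF1), CCGGAAG (the ETS core) and AAGATGGC (YY1). Shown are 3 of the 4 called members, which differ in these letters, and Sdha, a member at 4.70 FPKM, near the median coding gene, that holds the NRF1 letters at 2 places. Each runs 5′ to 3′ on the gene's strand, and capitals mark the matches.
Atp5if1, chr5:150026678-150026927, minus strand: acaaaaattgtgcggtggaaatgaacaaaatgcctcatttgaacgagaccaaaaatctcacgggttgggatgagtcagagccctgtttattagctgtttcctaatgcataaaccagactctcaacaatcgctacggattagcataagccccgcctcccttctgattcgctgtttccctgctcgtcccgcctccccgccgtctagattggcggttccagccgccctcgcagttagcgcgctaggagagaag
Uqcrq, chr10:38089979-38090228, minus strand: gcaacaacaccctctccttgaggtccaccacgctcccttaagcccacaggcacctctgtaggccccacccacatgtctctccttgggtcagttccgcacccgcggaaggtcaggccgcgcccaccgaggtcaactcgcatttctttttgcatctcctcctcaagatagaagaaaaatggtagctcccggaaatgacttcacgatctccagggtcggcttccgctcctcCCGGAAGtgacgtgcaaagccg
Atp5me, chr14:1464610-1464859, plus strand: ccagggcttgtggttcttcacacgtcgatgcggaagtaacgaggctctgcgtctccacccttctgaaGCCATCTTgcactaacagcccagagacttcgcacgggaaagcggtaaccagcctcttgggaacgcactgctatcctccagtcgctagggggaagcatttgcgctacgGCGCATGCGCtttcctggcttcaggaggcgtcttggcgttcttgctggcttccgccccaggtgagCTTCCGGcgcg
Sdha, chr1:30764303-30764552, plus strand: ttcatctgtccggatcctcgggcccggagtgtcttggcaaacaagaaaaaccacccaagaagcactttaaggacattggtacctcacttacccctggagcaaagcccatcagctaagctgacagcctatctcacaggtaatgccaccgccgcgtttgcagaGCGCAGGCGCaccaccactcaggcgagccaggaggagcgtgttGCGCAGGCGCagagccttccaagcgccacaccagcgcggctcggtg

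The window of Atp5if1 held none of the letters searched. That of Uqcrq held the ETS letters 15 bases before the start site. That of Atp5me held all 3 motifs: NRF1 66 bases before the start, ETS 4 bases before it on the opposite strand, and YY1 175 bases before it on the opposite strand. In the window of Sdha the NRF1 letters stood 79 and 36 bases before the start. No motif overlapped another in these windows. Over the 77 matched members 12 held the NRF1 letters (15.6%), against 5.06% of 21842 promoters of protein-coding genes and 3.75% of all 33469 promoters. The ETS letters were in 20 (25.97%, against 9.01% and 7.27%) and the YY1 letters in 2 (2.60%, against 1.64% and 1.63%). The median GC content was 56.4% in the members' windows and 54.0% in those of coding genes. Among the 14 matched members above the 99th percentile of the receptors 2 held NRF1 and 4 the ETS letters, and among the other 63 these were 10 and 16. A match is a description of the letters and was not tested against the vesicle levels.

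In FPKM complex V had the highest median of the groups and the assembly factors the lowest. Complex V had a median of 11.1, 17.6 and 15.2 FPKM (14.6 ± 3.28), and complex IV 8.07, 10.1 and 12.9 (10.35 ± 2.41). Complex III had 8.54, 9.64 and 11.5 (9.90 ± 1.498), complex II 7.64, 8.27 and 8.96 (8.29 ± 0.658) and complex I 7.94, 7.54 and 8.34 (7.94 ± 0.396). The assembly factors had 4.63, 5.68 and 5.32 FPKM (5.21 ± 0.536), near the median coding gene. On the log2(FPKM + 1) scale the median of complex V exceeded that of complex I in all 3 libraries, by 0.44, 1.12 and 0.79 (0.79 ± 0.34). Complex III exceeded complex I by 0.28 ± 0.17 and complex IV by 0.32 ± 0.28, also in 3 of 3 libraries, with replicate 1 at 0.09 and 0.02. Complex II differed from complex I by less than the spread between libraries (0.03 ± 0.09, higher in 2 of 3). The assembly factors lay below complex I in all 3 libraries (-0.53 ± 0.16). An exact sign-flip test over 3 libraries cannot go below a p of 0.25, and these differences are given with their spread and no p. The order of the complexes was that of levels per length: on the CPM scale complex II stood highest, 0.60 above complex I, with complex V 0.39, complex III 0.38 and complex IV 0.28 above it.

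The copies sat unevenly over the complexes, 11 of the 17 in complex I. Without them complex V exceeded complex I by 0.84 ± 0.38, complex IV by 0.23 ± 0.34 and complex III by 0.16 ± 0.23 (2 of 3 libraries), and complex II lay 0.16 ± 0.12 below complex I in every library. Without copies all 16 members of complex V and all 8 of complex III were above the median coding gene in every library. This leaves out the subunit genes Uqcr11 and Atp5mc1, whose rows are typed as long non-coding RNA. Uqcr11, of complex III, had 5.53, 1.36 and 1.28 FPKM, below that median in replicates 2 and 3. The rows of Atp5mc1, of complex V, had 13.1 ± 2.87 and 9.12 ± 0.343 FPKM. Without copies the lowest member of complex V was Atp5mk at 8.15 ± 0.915 FPKM. With copies the lowest was the Atp5mk-ps2 row ENSRNOG00000042869 (chromosome 10, 42211671 to 42211979, minus strand), with 2.08, 7.02 and 2.97 FPKM from 6, 21 and 9 counts.

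In complex V the abundant members came from every part of the enzyme. The F1 head, which carries out catalysis, had a median of 19.4 ± 5.09 FPKM over 5 genes, the peripheral stalk, which holds the head in place, 18.2 ± 6.93 over 4, and the membrane part 12.2 ± 2.72 over 6. Atp5f1e, the epsilon subunit of the central stalk, had 27.6, 76.1 and 45.2 FPKM (49.6 ± 24.6, limma adjusted p = 0.0932), from 35, 117 and 70 counts. Atp5pd, subunit d of the peripheral stalk, had 43.8 ± 19.8 FPKM. The alpha and beta subunits, which form the ring of the head with the catalytic sites on beta, were lower and close to each other, Atp5f1a at 18.8 ± 4.47 and Atp5f1b at 19.1 ± 7.09 FPKM. Atp5f1b overlaps Baz2a and 2 small nucleolar RNA genes on its strand, and the counting is not stated to tell such rows apart. Atp5f1c, the gamma subunit that turns inside the head, showed how length enters the unit: its 1086, 1609 and 1506 counts ranked second among members, but spread over an implied transcript length of 7.26 kb they gave 18.8, 23.1 and 21.5 FPKM (21.1 ± 2.21), rank 17.

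In complex IV the highest levels were those of small nuclear subunits in their general form. After Cox6c came Cox6b1, a subunit on the intermembrane space side, with 26.1, 49.0 and 59.9 FPKM (44.97 ± 17.3; limma adjusted p = 0.0691). Cox6a1, the broadly expressed form of a regulatory subunit, followed with 18.8, 48.8 and 36.2 FPKM (34.6 ± 15.03) and Cox7b with 18.7, 42.1 and 41.3 (34.0 ± 13.3). The second row of Cox6b1, on chromosome 2, had 4.31 ± 1.04 FPKM, so the chromosome 1 gene was 10.4 times higher. Cox6c-ps1 had 7.35 ± 0.559 FPKM, with Cox6c 9.67 times higher; reads shared between a gene and its copy could be placed on either row. Cox7a2l, a protein of respiratory supercomplexes rather than a subunit of the isolated enzyme, had 11.7, 10.5 and 14.3 FPKM (12.2 ± 1.93). The lowest member was Cox7b2 at 2.93 ± 1.35 FPKM, near the receptor median.

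Isoform pairs of complex IV were measured for 5 of the 8 pairs listed; the other pairs, with Cox6b2, Cox8a and Cox8b, were not analysed here. Cox4i1, the general form of subunit 4, had 16.4, 20.2 and 18.6 FPKM, and Cox4i2, the lung form, 9.63, 7.62 and 10.7. Their ranges did not overlap, and Cox4i1 was higher by 0.92 ± 0.33 on the log2(FPKM + 1) scale. Cox6a1 exceeded Cox6a2, the heart and skeletal muscle form with 11.3, 7.35 and 5.07 FPKM, by 1.96 ± 1.101. Cox7b exceeded Cox7b2, the testis form with 3.90, 3.51 and 1.40 FPKM, by 3.14 ± 1.07. These 3 pairs showed the general form higher in 3 of 3 libraries, each with an exact sign-flip p of 0.25 (two-sided, the smallest possible, 0.3125 adjusted over the 5 pairs).

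The other pairs did not follow that order. Cox7a2, the general form of subunit 7a, had 0, 53 and 65 counts, or 0, 13.9 and 16.9 FPKM, and the count of 0 in replicate 1 allows up to 0.941 FPKM. Cox7a1, the muscle form, had 6.73, 10.4 and 12.2 FPKM. Cox7a2 was thus lower by 2.95 in replicate 1 and higher by 0.38 and 0.44 in replicates 2 and 3 on the log2(FPKM + 1) scale (exact sign-flip p = 1.0). With no division by length, on the CPM scale, the mean difference was -2.42 and Cox7a2 was lower in all 3 libraries, since its implied length is 0.400 kb and that of Cox7a1 1.68 kb. Ndufa4, the complex IV subunit, had 3.82, 3.38 and 3.16 FPKM, and Ndufa4l2, its relative known for induction by low oxygen, had 12.8, 6.41 and 7.30 and was higher in 3 of 3 libraries. The difference of Ndufa4 from Ndufa4l2 was -1.09 ± 0.39 (exact sign-flip p = 0.25, 0.3125 adjusted over the 5 pairs). On the CPM scale, with no division by length, it turned to 0.22, since the implied length is 2.75 kb for Ndufa4 and 0.948 kb for Ndufa4l2. Of the genes in these 5 pairs, Cox7a1, Ndufa4l2, Cox7a2, Ndufa4, Cox4i1 and Cox7b each overlap a coding gene on the other strand, with levels from 1.7 FPKM (beside Cox7b) to 15.2 FPKM (Phf14, beside Ndufa4). Beside the muscle forms, the 8 cardiac and skeletal muscle markers had summed levels of 57.0 to 79.0 FPKM with a median of 7.13 ± 1.43, and none was at 0 in all libraries. None was called, against 1.57% of nuclear coding genes. The highest, Tnni3 at 17.6 ± 0.901 FPKM, was above the receptors' 99th percentile in every library, as were 3.13% of nuclear coding genes. Beside Cox7b2 and Cox8c, a testis form with 8.48, 3.89 and 4.77 FPKM, 5 of 6 male germ cell markers were measured and summed to 33.2 to 42.8 FPKM, led by Tnp1 at 21.0 ± 2.60, also above that percentile in every library, with none called. Their part in the isoform levels was not tested.

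**Figure D3:**
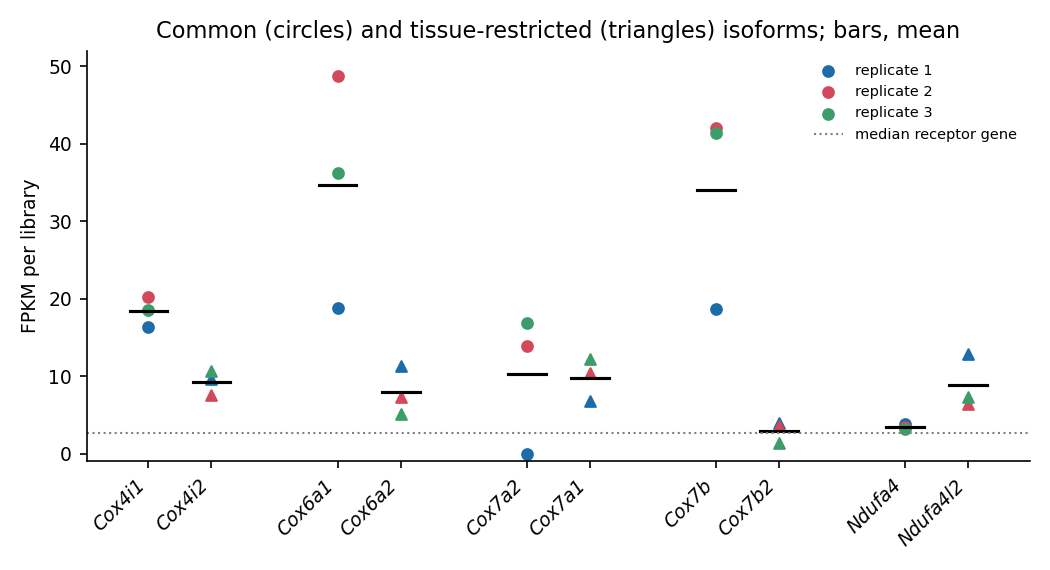
FPKM (linear axis) of the common (circles) and the tissue-restricted or inducible (triangles) member of 5 isoform pairs. Points are libraries, bars the mean of 3 libraries, and the dotted line the median receptor gene. The common form is higher in all 3 libraries for Cox4i1, Cox6a1 and Cox7b and lower for Ndufa4, and Cox7a2 is at 0 in replicate 1.

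In complex III the lead of Uqcrq was not shared by the catalytic subunits. Uqcrh, the hinge protein that helps cytochrome c1 to meet cytochrome c, had 12.7, 23.4 and 18.7 FPKM (18.3 ± 5.33). Uqcrb, a ubiquinone-binding subunit, had 5.98, 19.6 and 17.1 FPKM (14.2 ± 7.25), with replicate 1 apart from the others. Cyc1, cytochrome c1, had 11.3 ± 1.28 FPKM, and Uqcrfs1, the Rieske iron-sulfur protein, 9.14 ± 1.55. The lowest row was Uqcr10-ps1 at 2.96 ± 0.813 FPKM, from 5, 5 and 8 counts.

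All 4 subunits of complex II had counts in every library, but none was called above the receptors, against 1.57% of nuclear coding genes. The membrane anchors and the catalytic subunits did not form separate groups. Sdhc, a membrane anchor that binds heme and quinone, had 19.0, 15.7 and 21.4 FPKM (18.7 ± 2.83) and was the only one above the 99th percentile of the receptors in every library. Sdhb, the iron-sulfur subunit, had 7.88, 8.20 and 12.2 FPKM (9.42 ± 2.39), and Sdhd, the other anchor, 7.40, 8.35 and 4.46 (6.74 ± 2.03). Sdha, the flavoprotein that oxidises succinate, had 4.09, 4.26 and 5.75 FPKM (4.70 ± 0.910). The ranges of Sdhb and Sdhd overlapped. Sdhc lay above the other 3 in every library. Sdhb overlaps Atp13a2 (3.9 FPKM) on the same strand.

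In complex I accessory subunits led, and the catalytic core was lower and uneven. Ndufa13 had 28.4, 57.4 and 44.2 FPKM (43.4 ± 14.5; limma adjusted p = 0.0525), Ndufa12 24.4, 56.7 and 46.4 (42.5 ± 16.5; limma adjusted p = 0.0940) and Ndufb4 17.8, 43.1 and 48.3 (36.4 ± 16.3; limma adjusted p = 0.268). The 28 accessory subunits other than copies had a median of 9.31 ± 0.662 FPKM. Ndufa4l2 is counted among them by its name, though Ndufa4 was placed in complex IV. The 7 core subunits, which carry flavin and iron-sulfur clusters and reach the quinone site, had a median of 6.35 ± 0.618 FPKM. Over complexes I, III and IV together, accessory subunits exceeded core subunits by 0.21 ± 0.34 on the log2(FPKM + 1) scale (2 of 3 libraries), and by 0.42 ± 0.46 (3 of 3) without copies. Of the core subunits of complex I, Ndufv2 was highest at 15.4 ± 3.53 FPKM, followed by Ndufs8 at 11.3 ± 1.16. Ndufv1, which binds the flavin that accepts electrons from NADH, had 5.16 ± 1.16 FPKM, and Ndufs1 had 3.70 ± 1.92. The NADH-binding, quinone-binding and membrane parts of the complex had medians of 9.23 ± 0.753, 9.26 ± 2.01 and 9.03 ± 0.389 FPKM, which differed by less than their spread.

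The 7 assembly factors, which help to build complex I and do not stay in it, lay close together. None was above the 99th percentile of the receptors in every library, against 3.13% of nuclear coding genes. Ndufaf2 had 7.83, 6.01 and 5.76 FPKM (6.53 ± 1.13), Ndufaf5 5.85 ± 1.13 and Ndufaf6 5.23 ± 0.885. Ndufaf1, which acts early in assembly of the membrane arm, was the lowest with 1.42, 2.48 and 4.37 FPKM (2.76 ± 1.495), at the receptor median. Other assembly genes were at a like level and none was called, against 1.57% of nuclear coding genes, so few calls are expected here. Of 11 further complex I factors 10 were measured, with a median of 6.16 ± 0.732 FPKM and Ecsit highest at 9.64 ± 1.83. Of the factors for complexes II to V 34 of 43 were measured, with a median of 5.37 ± 0.316 FPKM and Atpaf2, which assembles the F1 head, highest at 15.05 ± 1.26.

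The limma test called 1.57% of nuclear coding genes and 1.79% of all genes, so few calls are expected in short lists. Other genes of mitochondrial energy supply gave a single call over 4 lists. That was Slc25a4, which exchanges ADP and ATP across the inner membrane, with 42.9, 99.3 and 96.3 FPKM (79.5 ± 31.7; 4.37 above the receptors, SE 0.318, limma adjusted p = 0.0258). The 7 measured of 8 listed carriers and channels had a median of 13.7 ± 5.09 FPKM. All 14 enzymes of the tricarboxylic acid cycle were measured and none was called (median 7.44 ± 0.110), with Mdh2 highest at 19.4 ± 9.34 FPKM. None of 16 electron carrier and coenzyme Q genes was called (median 5.64 ± 0.720; Etfb 13.5 ± 1.29), and none of 14 regulators of respiratory genes (median 3.51 ± 0.430; Ppargc1b, a coactivator, 11.4 ± 1.96).

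Apart from the copies, the members with short transcripts had the higher FPKM. Taking the length implied by counts and FPKM, the 9 members under 0.5 kb that were not copies had a median of 54.5 ± 24.7 FPKM, and the 25 members of 0.5 to 1 kb 16.0 ± 2.84. The medians were 9.20 ± 1.58 for 31 members of 1 to 2 kb, 7.50 ± 0.751 for 16 of 2 to 4 kb and 6.95 ± 0.702 for 5 above 4 kb. Coding genes of the same lengths had medians of 3.97, 4.63, 4.86, 4.95 and 4.88 FPKM. The share above the receptors' 99th percentile was also higher at short lengths among coding genes, 5.19%, 5.99%, 3.79%, 2.25% and 1.87% in the same bins, beside 6 of 9, 7 of 25, 2 of 31, 1 of 16 and 1 of 5 of these members. Across these 86 members the Pearson correlation of log length with log2(FPKM + 1) was -0.52 and the Spearman correlation -0.48, and across coding genes they were 0.02 and 0.03. These describe genes within the same 3 libraries, and FPKM holds length in its denominator. Length and counts, by contrast, correlated positively (0.29 and 0.34 for these members, 0.74 and 0.75 for coding genes). With the copies the median under 0.5 kb was 7.34 FPKM, below the 14.6 at 0.5 to 1 kb and the 9.14 at 1 to 2 kb, and the correlations of length with FPKM over all 103 members were -0.21 and -0.14.

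**Figure D4:**
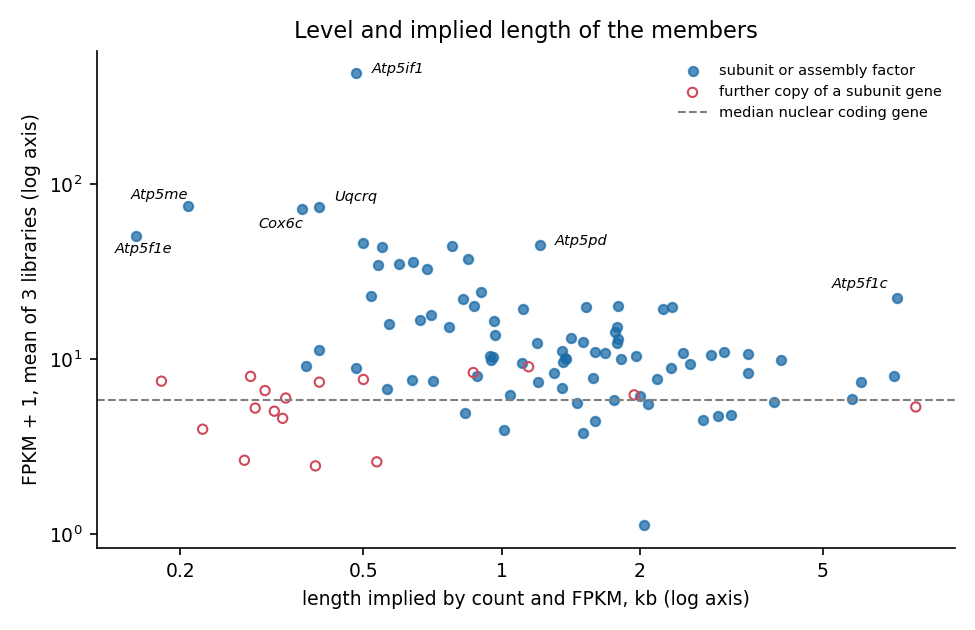
FPKM + 1, as the mean of 3 libraries, against the length implied by count and FPKM in kb (both log axes). Filled points are subunit and assembly genes, open points further copies, and the dashed line is the median nuclear coding gene raised by 1. The highest members lie at the short end among the filled points (median 54.5 FPKM under 0.5 kb), Atp5f1c stands out among the long ones at 21.1 FPKM, and most copies are short and low.

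Replicate 1 held less of these mRNAs than the other libraries. It was the lowest library for 57 of 103 members (55.3%, against 25.0% of nuclear coding genes), and for 65 (63.1%, against 34.2%) under TMM scaling. By complex these were 17 of 19 in V, 10 of 18 in IV, 6 of 9 in III, 2 of 4 in II, 19 of 46 in I and 3 of 7 assembly factors. Of the 17 members above the 99th percentile 16 were lowest there (94.1%), and so were 73.3% of the coding genes above that percentile. The receptor median was highest in that library, 2.95 FPKM against 2.35 and 2.65, and its count total was the lowest. The part of either in the lower levels was not tested. Over all 103 members the log2(FPKM + 1) values of replicates 2 and 3 correlated with a Pearson r of 0.908, and those of replicate 1 with them at 0.825 and 0.821.

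The mitochondrially encoded partners stood far above the nuclear subunits of the same complexes. The median of the 7 mitochondrial subunits of complex I was 183, 153 and 157 times that of its nuclear members (164 ± 16.6). The ratio was 217 ± 32.7 for complex III, whose only mitochondrial subunit is cytochrome b, 74.2 ± 15.8 for complex IV with 3 and 119.9 ± 37.7 for complex V with 2. None of the nuclear members of these complexes, Atp5if1 included, reached the lowest mitochondrial subunit of its complex. For complex V that was Mt-atp8 at 1143 FPKM. The ratio was highest in replicate 1 in all 4 complexes.

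**Figure D5:**
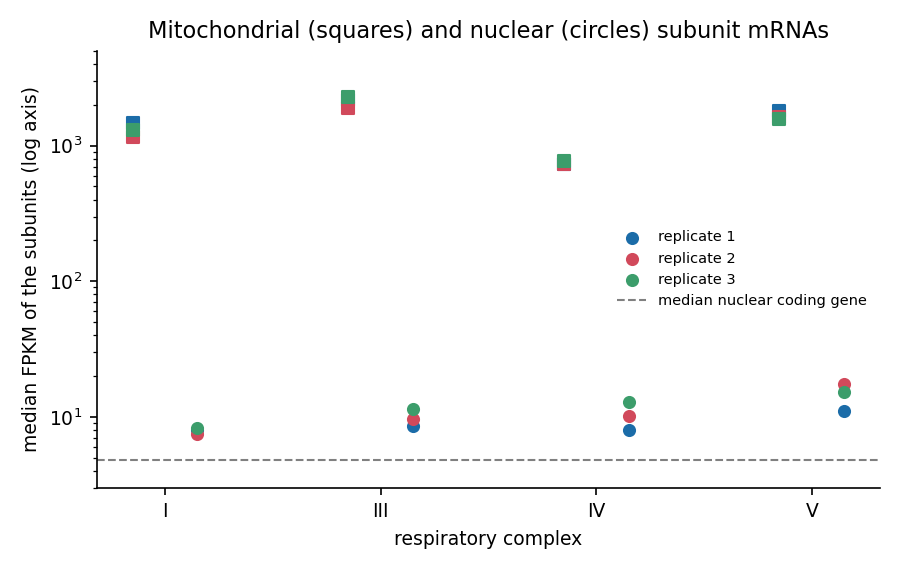
Median FPKM (log axis) of the mitochondrially encoded (squares) and nuclear-encoded (circles) subunits of complexes I, III, IV and V. Points are libraries, and the dashed line is the median nuclear coding gene (mean of 3 libraries). The mean ratio of the medians is 164 for complex I, 217 for III, 74.2 for IV and 119.9 for V, and squares and circles stay far apart in every library.

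The labelled cell type was checked with its markers. The 7 mesenchymal stromal markers had a median of 7.49 ± 1.28 FPKM and summed to 162 to 303 FPKM, of which vimentin (172 ± 63.0) was called by limma. Of the other cell types, 5 haematopoietic markers summed to 23.6 to 28.2 FPKM and 5 mature adipocyte markers to 23.1 to 28.6. The 4 brown adipocyte markers summed to 14.3 to 16.5 FPKM. None of these was called, against 1.57% of nuclear coding genes, so few calls are expected in lists this short.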

How the data were processed

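RNA of extracellular vesicles was sequenced in 3 libraries. Per the labels' protocols, a low-input stranded total RNA kit with removal of ribosomal cDNA was used. Per the submitters' processing notes, cutadapt 1.9 and FastQC were run and the build was mRatBN7.2; aligner and counter were not given in the sources used here, and whether strand was used is not stated. The authors deposited counts and FPKM per gene and library. A total per library was taken as the median implied by count, FPKM and genomic span of the mitochondrially encoded coding genes. The implied length of a gene followed from these totals and its counts and FPKM over the 3 libraries. The edgeR test and the TMM and DESeq2 scalings used these lengths. The main test was limma (3.58.1, R 4.3.3) treat on log2(FPKM + 1), with a pseudocount of 1, relative to the median of 1313 receptor genes in the library, one-sided, at a threshold of 2 (a 4-fold difference in FPKM + 1, or 5.14-fold in FPKM at the receptor median), with a variance trend and Benjamini-Hochberg adjustment over all 29684 genes. No gene was filtered out in the main test. In 1 gene without a numeric start no overlap was sought. edgeR (4.0.16) was run on the counts; its quasi-likelihood F statistic was formed against the same threshold, since the design has a single coefficient. DESeq2 (1.42.0) gave size factors for an alternative. Limits for a count of 0 are 3 counts and cover counting error only, since no molecular identifiers are named. The test was also run on simulated counts, drawn independently for each library. These hold no low replicate as seen here, so that run cannot speak for the test on these libraries. Median counts of a member were 88, 130 and 143; 14 of 103 members had under 10 counts in some library, and 3 were at 0 in some library. The median coefficient of variation was 30.1% for members and 22.9% for coding genes. Overlap with another row was found for 33 members.

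Named were the 3 highest members and the lowest of each complex and of the assembly factors (all 4 of complex II), every member called, the isoform pairs, the core of complex I by range, Atp5if1 and Cox7a2l, and of other lists the highest and each called member. Atp5f1a, Atp5f1b, Atp5f1c, Atp5mk, Cyc1, Uqcrfs1, Cox8c and the copies were added after their values were seen. The members, lists and tests were chosen with earlier results of these data known. A member that this rule names is not reported here. Leaving out the copies was added after the values were seen. A few names that meet the rule are typed in the annotation as pseudogene or long non-coding RNA (5 rows) and were not members.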

Additional observations from a re-analysis of the deposited data

How the results depend on the processing

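No paired analysis was possible because the study has 1 group. The number of members called was 14 with edgeR, 11 with a pseudocount of 0.1, 1 with a pseudocount of 5, 11 with CPM, and 0 to 16 when a replicate was left out. The same counts over all genes, 531 in the report's test, were 818, 815, 225 and 3670, and 0 to 768 without a replicate. Without replicate 3 there were 948 genes at an unadjusted p under 0.05. With CPM, 11 of 103 members stood beside 3670 of 29684 genes and 3393 of 22745 nuclear coding genes. On that scale the members' share was below that of both sets, unlike in the report's test. A median coding gene as the reference, over all lengths or over the members' range, left 297. The prior variance set robustly left 367 genes and 3 members. TMM scaling, DESeq2 size factors and both coding references also gave 3 members, rescaling without mitochondrial and structural RNA 5 and a filter of mean FPKM of at least 1 gave 4. Of the 4 members called in the report only Atp5if1 was called with CPM or with a pseudocount of 5, so the 11 with CPM are largely other members. Assembly factors minus complex I was -0.34 with a pseudocount of 5, -0.92 with CPM and -0.71 without copies. Complex II minus I was 0.60 with CPM, 0.18 with complexes by name prefix, 0.14 with means over subunits and -0.16 without copies. Complex V minus I fell to 0.39 with CPM, and complex III minus I was 0.53 with means over subunits. Ndufa4 minus Ndufa4l2 turned to 0.22 with CPM. Cox7a2 minus Cox7a1, -0.71 as the mean over 3 libraries, ranged from -1.29 to 0.41 when a replicate was left out, with the positive value without replicate 1. On CPM complex II, not V, had the highest median. Complexes III, IV and V stayed above complex I under every alternative run for them. Causes of these shifts were not tested. Low counts of short members limit the precision of their levels.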
